A study of Mus musculus with 2 samples.

Results

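The genes described here encode subunits of the SET1/MLL complexes, which deposit methylation on lysine 4 of histone H3 (H3K4) and so act opposite to KDM5B, the H3K4 demethylase depleted in these cells. The members were fixed by name as 10 subunit genes (*Setd1a*, *Setd1b*, *Ash2l*, *Wdr5*, *Rbbp5*, *Dpy30*, *Cxxc1*, *Men1*, *Hcfc1* and *Wdr82*), and 9 of them were found among 21935 gene symbols. *Setd1b* matched no entry by symbol and was not analysed here. Where a gene had several transcript entries, it was represented by the entry whose RPKM, averaged over both libraries, was highest.

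RNA-Seq was performed on mouse embryonic stem cells of the R1 line (R1 ES cells), infected with lentiviral particles, selected with puromycin, and differentiated without LIF. The labels name low attachment dishes for differentiation in general and the methods also gelatin, without saying which was used for these libraries. The time of 72 h is taken from the names given to the deposited data, since the labels state none. shKdm5b ES cells carried a short hairpin RNA (shRNA) against *Kdm5b*. shLuc control ES cells carried one against luciferase. Before differentiation the cells were maintained with LIF on irradiated fibroblast feeders. Each condition has 1 library, so no difference has a replicate check, and library and condition cannot be told apart. In bulk RNA, fewer cells of a type and less RNA per cell also cannot be told apart.

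In each SET1/MLL complex a catalytic SET-domain protein is joined by a core of WDR5, RBBP5, ASH2L and DPY30 (WRAD), which all these complexes share. SETD1A and SETD1B, the enzymes responsible for much of the H3K4me3 at promoters, work with CXXC1 (CFP1) and WDR82. The KMT2A and KMT2B enzymes work with menin (*Men1*), and KMT2C and KMT2D methylate enhancers. In ES cells, H3K4me3 marks promoters of active genes, and together with H3K27me3 it marks bivalent promoters of developmental genes.

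The libraries held 78172698 (shLuc) and 72702698 (shKdm5b) aligned reads. Distinct start positions made up 32.9% of the aligned reads with shLuc and 20.1% with shKdm5b, so more reads of the shKdm5b library share a start. The part of this in the ratios given here was not tested. *Kdm5b* itself was at 104 RPKM (reads scaled to transcript length and to the number of aligned reads) with shLuc and 3.01 RPKM with shKdm5b, which is a log2 ratio of -5.07. All 10 ES cell markers examined were detected in both libraries, with a summed RPKM of 3145 in shLuc and 3222 in shKdm5b, but they did not move together. *Pou5f1* was at 619 RPKM in shLuc and 182 RPKM in shKdm5b (log2 ratio -1.76), *Esrrb* was at 80.5 and 41.2 RPKM (-0.96), and *Dppa5a* was at 1096 and 1651 RPKM (0.59). These 3 differed by more than 1.5-fold and the other 7 did not. Of all genes with RPKM above 1, 48.3% differed by more than 1.5-fold. After the corrections for GC content and transcript length described below, *Pou5f1* was at -1.29, *Esrrb* at -0.15 and *Dppa5a* at -0.03. The part of these marker differences in the subunit ratios was not tested. The 10 fibroblast markers, which would reveal feeder cells, summed to 5.50 and 6.43 RPKM. Of these only *Thy1* exceeded 1 RPKM, while *Postn* and *Fap* had 0 reads in the shKdm5b library.

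Transcripts of 8 of the 9 subunits were lower in shKdm5b than in shLuc ES cells, and those of *Dpy30* were higher. Of 11804 genes with RPKM above 1, 7130 had a log2 ratio below 0. A gene was counted as different when it differed by more than 1.5-fold in either direction and its RPKM exceeded 1 in at least 1 library. By this rule 6 subunits were lower (*Wdr5*, *Cxxc1*, *Hcfc1*, *Setd1a*, *Men1* and *Ash2l*), 1 was higher (*Dpy30*), and 2 stayed within 1.5-fold (*Wdr82* and *Rbbp5*). Among all these 11804 genes, 48.3% passed the same rule, 32.0% lower and 16.3% higher. The median log2 ratio of the subunits was -0.96, against -0.21 for all of these genes, whose SD across genes was 0.84. TMM scaling, which takes the log2 shift between the libraries as -0.22 and removes it, left all 9 subunits with the same direction, 5 of them past the limit as lower and 1 as higher. Over all genes, 47.2% then passed, 23.2% lower and 24.1% higher.

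**Figure D1:**
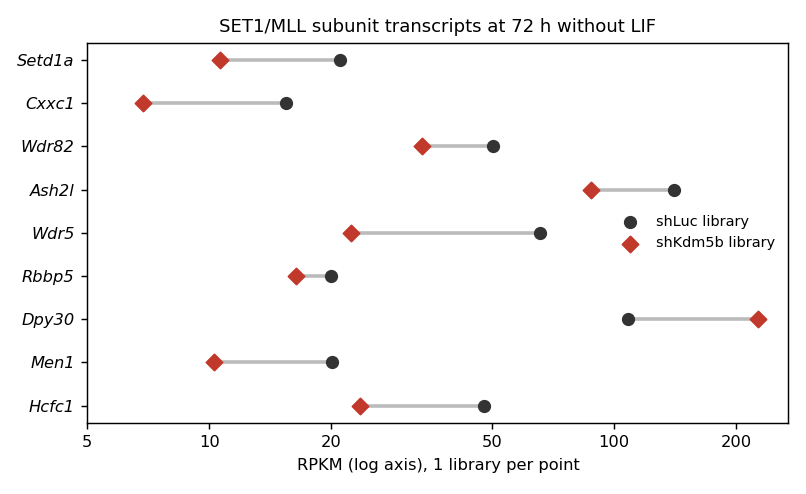
RPKM (log axis) of 9 SET1/MLL subunit transcripts in the shLuc library (circles) and the shKdm5b library (diamonds), with 1 library per condition and no error bars. *Dpy30*, from 108 to 226 RPKM, is the subunit with the higher value in the shKdm5b library, and the other 8 lie to the left of their shLuc value.

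The shared core contained both the lowest log2 ratio and the only one above 0 among the subunits. *Wdr5*, a WD40 protein that binds the catalytic subunit and has been linked to ES cell self-renewal, was at 65.8 RPKM (14906 reads) with shLuc and 22.4 RPKM (4710 reads) with shKdm5b. Its log2 ratio of -1.55 (95% counting interval -1.61 to -1.51) lay at percentile 5.14 of all genes with RPKM above 1. *Dpy30*, whose dimer binds ASH2L, was at 108 RPKM (5960 reads) in shLuc and 226 RPKM (11589 reads) in shKdm5b. Its log2 ratio of 1.06 (1.02 to 1.11) lay at percentile 94.7. The counting intervals come from the reads alone by the exact Clopper-Pearson method and treat reads as independent, so they are too narrow where reads are copies of 1 fragment.

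*Ash2l*, which helps activate the methyltransferase, was at 141 RPKM in shLuc and 87.7 RPKM in shKdm5b, with 25472 and 14778 reads. The log2 ratio was -0.68 (-0.71 to -0.65), just past 1.5-fold, and it came within 1.5-fold after TMM scaling (-0.46). *Rbbp5*, the other WD40 protein of the core, was at 19.9 RPKM (5659 reads) in shLuc and 16.4 RPKM (4324 reads) in shKdm5b. Its log2 ratio of -0.28 (-0.34 to -0.23) is close to the median of all genes, -0.21. The 4 core transcripts therefore did not keep their proportions between the libraries. *Dpy30* RPKM was 0.771 times that of *Ash2l* in shLuc and 2.58 times in shKdm5b, and the ratio of *Wdr5* to *Rbbp5* RPKM was 3.30 in shLuc and 1.37 in shKdm5b.

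The promoters of *Wdr5*, *Dpy30* and *Rbbp5* are shown because these core subunits had the lowest ratio, the highest ratio and the ratio closest to 0, and because CXXC1 and the KMT2A and KMT2B enzymes bind unmethylated CpG through their CXXC domains. Each line is the 250 bases before a RefSeq transcription start (GRCm38.p6), 5′ to 3′ on the strand of the gene, with every CpG in capitals. *Wdr5* is at chr2:27514897-27515146 (plus strand), *Dpy30* at chr17:74316212-74316461 (minus strand) and *Rbbp5* at chr1:132477117-132477366 (plus strand).
Wdr5: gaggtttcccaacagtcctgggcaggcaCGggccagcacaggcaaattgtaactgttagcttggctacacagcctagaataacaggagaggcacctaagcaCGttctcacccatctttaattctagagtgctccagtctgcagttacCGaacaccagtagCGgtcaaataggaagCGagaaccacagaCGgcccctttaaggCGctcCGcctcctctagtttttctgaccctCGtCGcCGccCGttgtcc
Dpy30: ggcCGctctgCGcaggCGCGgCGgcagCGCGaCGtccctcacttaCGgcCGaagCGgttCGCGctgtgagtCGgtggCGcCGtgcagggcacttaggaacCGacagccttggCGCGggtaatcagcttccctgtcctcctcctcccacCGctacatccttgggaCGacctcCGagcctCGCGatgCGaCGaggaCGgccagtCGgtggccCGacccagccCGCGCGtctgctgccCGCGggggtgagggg
Rbbp5: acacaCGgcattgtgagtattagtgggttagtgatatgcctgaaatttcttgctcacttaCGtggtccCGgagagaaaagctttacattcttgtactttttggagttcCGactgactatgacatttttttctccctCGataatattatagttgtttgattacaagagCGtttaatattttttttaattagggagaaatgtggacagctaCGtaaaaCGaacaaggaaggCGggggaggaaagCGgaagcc

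The *Dpy30* window held 34 CpG, the *Wdr5* window 12 and the *Rbbp5* window 10, against a median of 6 over 32851 windows of the same length. *Dpy30* has 4 annotated starts, of which the one with the most CpG is shown, and the others held 28, 21 and 1. Windows were available for 7 subunits, each with CpG, from 10 to 34 per window where the start with the most CpG was taken. CpG was present in 92.1% of all windows. *Setd1a* had 25, *Wdr82* had 24, *Hcfc1* had 19 and *Men1* had 10. All 7 windows thus held more CpG than the median window, those of *Men1* and *Rbbp5* more than 62.2% of all windows. The letters CCGGAA (either strand, an ETS factor core) occurred in the chosen window of *Hcfc1*, with no match in those of the other subunits, and in 12.0% of all windows. CCAAT (either strand) occurred in that of *Men1* and in 33.8% of all windows.

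The measured subunits particular to the SET1 complexes all had log2 ratios below 0, as did 7130 of 11804 genes with RPKM above 1. *Setd1a*, the catalytic subunit, was at 21.1 RPKM (9777 reads) in shLuc and 10.6 RPKM (4592 reads) in shKdm5b, a log2 ratio of -0.98 (-1.04 to -0.93). *Cxxc1*, which encodes the CpG-binding subunit, was at 15.5 RPKM (3073 reads) in shLuc and 6.87 RPKM (1267 reads) in shKdm5b, a log2 ratio of -1.16 (-1.27 to -1.08). *Wdr82*, which links the complex to RNA polymerase II, was at 50.2 RPKM (16932 reads) and 33.6 RPKM (10538 reads). With a log2 ratio of -0.58 (-0.61 to -0.54), *Wdr82* lay just inside the 1.5-fold limit, and *Ash2l* was the nearest subunit outside it. The RPKM of *Setd1a* was 1.36 times that of *Cxxc1* in shLuc and 1.55 times in shKdm5b. The corresponding ratio of *Wdr82* to *Cxxc1* was 3.24 in shLuc and 4.89 in shKdm5b.

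The remaining subunits, both found in KMT2A and KMT2B complexes, were also lower. *Men1* encodes menin, which tethers KMT2A and KMT2B to chromatin partners. It was at 20.1 RPKM (4151 reads) in shLuc and 10.3 RPKM (1975 reads) in shKdm5b, a log2 ratio of -0.96 (-1.04 to -0.89). *Hcfc1*, an X-linked gene for host cell factor 1, which occurs in SET1 and KMT2A/B complexes, was at 47.7 RPKM (30179 reads) in shLuc and 23.6 RPKM (13898 reads) in shKdm5b. Its log2 ratio was -1.01 (-1.04 to -0.98).

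The order of the subunits by RPKM differed between the libraries. *Ash2l* was the most abundant subunit transcript in shLuc and *Dpy30* in shKdm5b, and *Cxxc1* was the least abundant in both. *Dpy30* supplied 22.1% of the summed RPKM of the 9 subunits in shLuc and 51.7% in shKdm5b. These levels were not corrected for GC content or length. With both corrected, as described below, the log2 ratio of *Dpy30* was 0.38, at percentile 74.7 of all genes. Without *Dpy30*, the summed RPKM was 381 in shLuc and 211 in shKdm5b. *Wdr5* ranked 3 in shLuc and 5 in shKdm5b, behind *Wdr82* and *Hcfc1*. *Rbbp5* ranked 8 in shLuc and 6 in shKdm5b, ahead of *Setd1a* and *Men1*. The 95% counting intervals of neighbours in this order overlapped for *Setd1a* and *Men1* in both libraries and for *Men1* and *Rbbp5* in shLuc, and the levels of the other neighbours were further apart than counting error.

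Alternative entries of the same gene gave similar ratios, although they largely count the same reads. The 4 *Dpy30* entries, from 704 to 799 bases long, had log2 ratios from 1.06 to 1.08. The 4 *Men1* entries had log2 ratios from -1.03 to -0.96, and the 2 *Ash2l* entries had -0.73 and -0.68. To see whether reads could be shared with other genes, each transcript was divided into words of 50 bases, the read length, and these were looked for in all GENCODE transcripts of other genes on both strands. No such word was found for *Wdr5*, *Cxxc1*, *Wdr82*, *Men1* or *Hcfc1*. Words found elsewhere made up 0.612% of those of *Ash2l* and 1.61% of those of *Dpy30*, all in processed pseudogenes. For *Rbbp5*, 7.98% of the words lie in the processed pseudogene *Gm11977*. For *Setd1a*, 59.2% lie in *Gm49388*, another annotated transcript, in the same orientation, so reads of the pair cannot be told apart there. Whether they overlap in the genome was not examined.

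**Figure D2:**
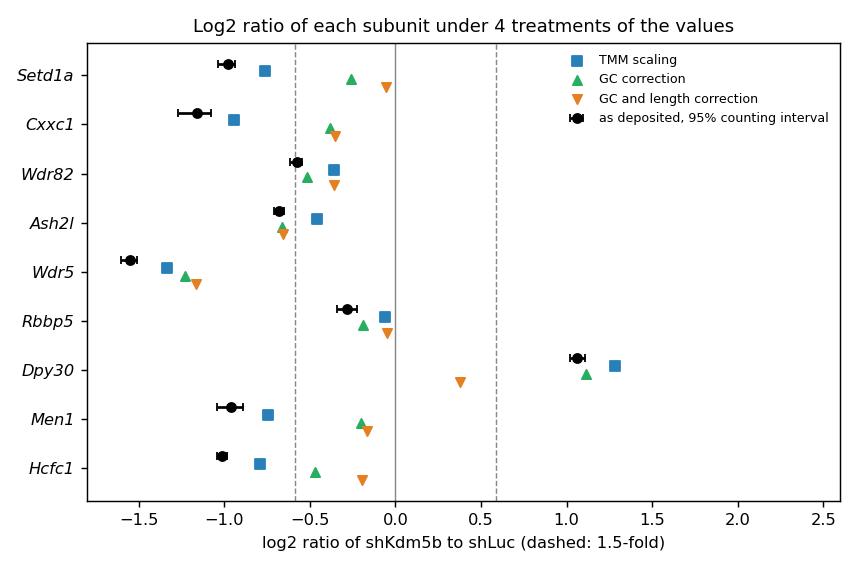
Log2 ratio of shKdm5b to shLuc for each subunit from the values as deposited (black circles, bars are 95% counting intervals), after TMM scaling (squares), after a correction for transcript GC content (upward triangles) and after a correction for GC content and length (downward triangles). *Wdr5* stays below the dashed 1.5-fold line in all 4 and *Ash2l* in 3 of them, while *Setd1a* and *Men1* move to -0.26 and -0.20 with the GC correction.

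Transcript GC content moved with these ratios. Across 11535 genes with RPKM above 1 and a matched transcript, the log2 ratio had a Spearman correlation of -0.53 with GC content (a description across genes of the same 2 libraries). *Cxxc1* (58.4% GC), *Men1* (57.9%), *Setd1a* (57.2%) and *Hcfc1* (54.4%) are GC-rich, and a lowess curve through all genes lay between -0.78 and -0.54 at their GC content. With this curve subtracted, their log2 ratios were -0.38, -0.20, -0.26 and -0.47, all within 1.5-fold. *Wdr5* (51.5% GC) remained at -1.23 and *Ash2l* (47.5% GC) at -0.66. *Wdr82* (48.1%) and *Rbbp5* (48.5%) changed little, to -0.52 and -0.19. *Dpy30* (48.0%) was at 1.11, a value that depends on the entry used. Its entries were paired with transcripts of 42.3% to 54.3% GC, and the curve was 0.37 at 42% and -0.51 at 54%. *Rbbp5* and *Wdr82* were paired with transcripts of 2856 and 3747 bases, shorter than their entries of 3632 and 4313 bases.

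With the GC correction 3 subunits passed 1.5-fold, *Wdr5* and *Ash2l* lower and *Dpy30* higher, and 36.4% of all genes did (17.7% lower and 18.7% higher). When a curve on transcript length was subtracted too, 2 subunits passed, *Wdr5* (-1.16) and *Ash2l* (-0.66), as did 31.5% of all genes (16.2% lower and 15.4% higher). *Dpy30*, with an entry of 704 bases the shortest of the subunits, came to 0.38, inside the limit, and *Setd1a* to -0.06. *Wdr5* was thus the subunit with the lowest log2 ratio in every one of these treatments, at percentile 3.03 of all genes after the GC correction and 3.97 after both.

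**Figure D3:**
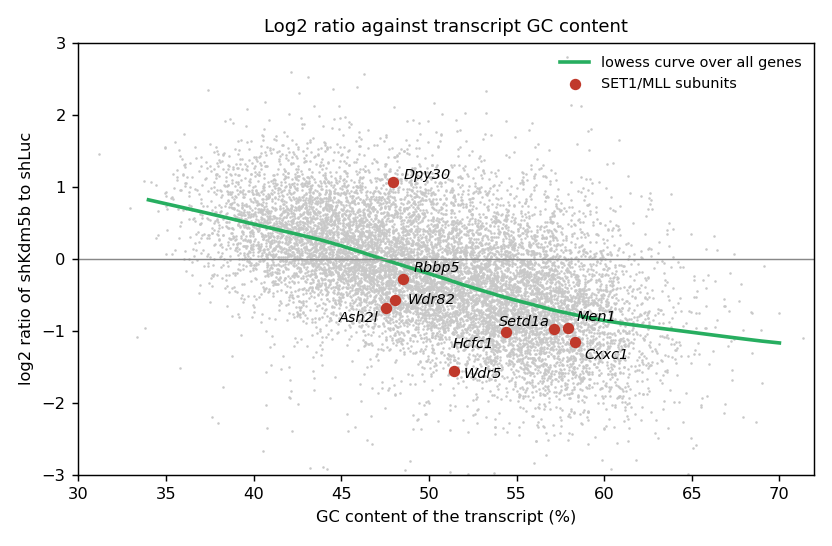
Log2 ratio of shKdm5b to shLuc against the GC content of the transcript for genes with RPKM above 1 (grey, 11481 genes, with 54 outside the axes), the lowess curve through all of them (line) and the 9 subunits (large labelled points). *Cxxc1*, *Men1* and *Setd1a* lie near the curve, *Wdr5* lies well below it and *Dpy30* well above it.

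The 4 KMT2 enzymes, which share the WRAD core, all had log2 ratios below 0, as did 7130 of 11804 genes. *Kmt2b* (*Wbp7* in the files) was at 15.2 RPKM in shLuc and 7.61 RPKM in shKdm5b, a log2 ratio of -0.99, and was the most abundant of them. *Kmt2d* (*Mll2* in the files) was at 3.53 and 1.49 RPKM, a log2 ratio of -1.20. *Kmt2a* (*Mll1*) was at 3.43 and 2.10 RPKM, a log2 ratio of -0.69, and *Kmt2c* (*Mll3*) at 4.12 and 2.89 RPKM, a log2 ratio of -0.49. By the 1.5-fold rule 3 of the 4 were lower, with *Kmt2c* within the limit, against 32.0% of all genes. After the GC correction 0 of the 4 passed, against 36.4% of all genes in either direction and 17.7% lower, with log2 ratios from -0.47 to -0.17, and after the GC and length correction their median was 0.06.

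Further subunits and partners of these complexes lay on both sides of 0. Of 9 such genes, 2 were lower, 2 were higher and 5 stayed within 1.5-fold, with a median log2 ratio of -0.18. The number past the limit is near the background of 48.3% of all genes (32.0% lower and 16.3% higher). *Pagr1a*, a partner in the KMT2C/D complexes, was at 20.4 RPKM in shLuc and 7.74 RPKM in shKdm5b (log2 ratio -1.39), and *Kat8*, an H4K16 acetyltransferase, was at 18.2 and 10.8 RPKM (-0.75). *Psip1*, a chromatin partner of menin, was at 73.7 and 129 RPKM (log2 ratio 0.81), the opposite direction to *Men1*. *Ncoa6*, another KMT2C/D partner, was just past the limit, at 4.74 and 7.17 RPKM (0.59). With the GC correction *Ncoa6* alone of these 9 passed (0.71), against 36.4% of all genes. *Psip1* was then at 0.47, and *Pagr1a*, at -0.58, was just inside the limit. After the GC and length correction *Ncoa6* (0.94) and *Pagr1a* (-0.81) passed, against 31.5% of all genes.

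H3K4 methylation by SET1 complexes is stimulated by ubiquitination of histone H2B. The E2 enzymes of this step were both higher in shKdm5b. *Ube2b* was at 33.1 RPKM in shLuc and 104 RPKM in shKdm5b, a log2 ratio of 1.64 (1.60 to 1.69), and *Ube2a* was at 11.0 and 27.6 RPKM, a log2 ratio of 1.31. *Rnf40*, a subunit of the E3 ligase, was lower, at 15.5 and 6.76 RPKM (log2 ratio -1.19). Its partner *Rnf20* was within 1.5-fold at -0.33. *Ube2a* and *Ube2b* are close paralogs whose shared reads were not examined. These were the 3 of 11 genes of H2B ubiquitination and the PAF1 complex that passed, against 48.3% of all genes, and the median of the 11 was 0.37. TMM scaling brought the number past 1.5-fold to 7 (6 higher and 1 lower), against 47.2% of all genes (24.1% higher and 23.2% lower). After the GC correction *Ube2b* (1.29), *Ube2a* (0.95) and the PAF1 subunit *Leo1* (0.80) passed as higher, and *Rnf40* (-0.54) did not pass. These are 3 of the 11 genes, 1 of which had no matched GC content and could not pass. Of all genes with GC content, 36.4% passed (18.7% higher and 17.7% lower).

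Among 13 genes for proteins that read H3K4me3, 2 were lower, 0 were higher and 11 stayed within 1.5-fold, with a median log2 ratio of -0.05. Of all genes 48.3% passed. Those lower were *Ing4*, a subunit of an acetyltransferase complex, at 14.5 RPKM in shLuc and 6.12 RPKM in shKdm5b (log2 ratio -1.23), and *Ing5*, at 17.6 and 9.47 RPKM (-0.88). Both stayed lower after the GC correction, at -0.89 and -0.85. With that correction 5 of the 13 passed, 2 higher (*Sgf29* at 0.75 and *Phf2* at 0.67) and 3 lower (*Spin1* at -0.60 besides the *Ing* genes), against 36.4% of all genes. Of the H3K4 demethylases other than *Kdm5b*, 4 of 5 had RPKM above 1, and the median of these was -0.17. *Kdm5c* was the 1 of these 4 that was lower, against 32.0% of all genes (34.1 and 13.3 RPKM, log2 ratio -1.35), while *Kdm1a*, *Kdm1b* and *Kdm5a* stayed within 1.5-fold at -0.17, 0.55 and -0.17, although *Kdm1b* passed it after TMM scaling. After the GC correction *Kdm5c* (-0.92) was again the 1 of these 4 that passed, against 36.4% of all genes (17.7% lower). With length corrected too it was at -0.71. *Kdm5d* had 8 reads in shLuc and 0 in shKdm5b.

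**Figure D4:**
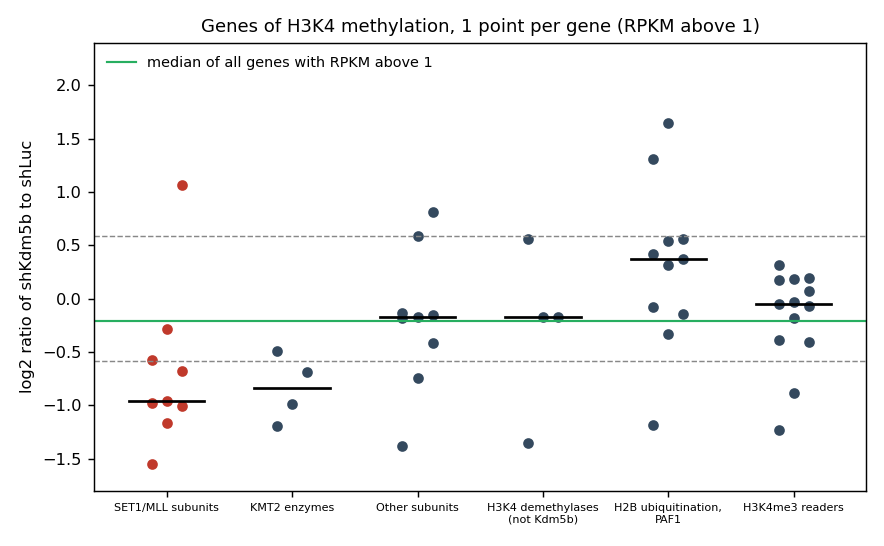
Log2 ratio of shKdm5b to shLuc for the 9 subunits and 5 lists of related genes with RPKM above 1 (*Kdm5b* left out), with 1 point per gene and a bar at the median of each list. The dashed lines mark 1.5-fold and the horizontal line the median of all genes (-0.21). The medians of the subunits (-0.96) and of the KMT2 enzymes (-0.84) lie below it, and that of the H2B ubiquitination and PAF1 genes (0.37) above it.

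The edgeR exact test on read counts compares this pair of libraries and not the conditions, and its outcome depends on an assumed dispersion. When it was required as well (FDR below 0.001) with the dispersion set to 0, the same 7 subunits passed, as did 47.0% of all genes. With a dispersion of 0.04, 0 subunits and 2.30% of all genes passed, with an FDR of 0.0194 for *Wdr5* and 0.0262 for *Dpy30*, the smallest of the 9. *Ube2b* was the gene of the related lists, *Kdm5b* aside, that passed there. A limit of 2-fold in place of 1.5-fold left 4 subunits (*Wdr5*, *Cxxc1* and *Hcfc1* lower, *Dpy30* higher) and 22.8% of all genes.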

How the data were processed

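Poly-A RNA of 1 shLuc and 1 shKdm5b library was sequenced. The authors deposited, per RefSeq transcript entry, whole-number read counts, lengths and RPKM values, that is, counts scaled to transcript length and aligned reads, and also the aligned reads. The submitters' processing notes name Bowtie 0.12.7, CASAVA 1.0 and mm8. How reads were filtered and assigned to entries, and whether strand was used, is not given in the sources used here.

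Log2 ratios compare RPKM + 0.1, and so understate changes of genes with few reads. At this depth 3 reads on a 1 kb transcript are 0.0384 RPKM (shLuc) or 0.0413 RPKM (shKdm5b). The fold change and RPKM thresholds follow the study's methods. With 1 library per condition no quasi-likelihood test could be fitted. Reads were tested with the exact test of edgeR 4.0.16 after TMM at assumed dispersions of 0, 0.04 and 0.16. Clopper-Pearson intervals on the ratio and Poisson intervals on the level (95%) cover counting error only.

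GC content came from GENCODE M21 transcripts paired by accession (97.7% of genes above 1 RPKM). Lowess curves (fraction 0.3, statsmodels 0.14.6) were fitted to these genes. The GRCm38 reference was not used with the aligned reads, whose build differs. Scripts were tested on simulated data. DESeq2 1.42.0 gave size factors. Named were all members, all KMT2 enzymes and H3K4 demethylases, and genes of the other lists past the thresholds. *Rnf20*, *Leo1*, *Sgf29*, *Phf2*, *Spin1*, the marker genes and genes sharing words were named after their values were seen. The members, lists, corrections and thresholds were chosen with earlier results of these data known.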

Additional observations from a re-analysis of the deposited data

How the results depend on the processing

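No paired analysis was possible because only 1 library represents a condition, and no result could be recomputed without a replicate. All 9 subunit ratios kept their sign under the 9 alternatives that change them. Their median, -0.96, was -0.80 after median scaling, -0.74 after TMM, -0.73 with DESeq2 size factors, -0.38 with GC content corrected and -0.20 with length corrected too. The 7 subunits past the thresholds became 4 with a fold change above 2, 3 with GC content corrected, 2 with length corrected too, and 0 when dispersions of 0.04 or 0.16 were assumed. At 0.16 *Kdm5b* did not pass either (edgeR exact test, FDR 0.00242). Without *Kdm5b*, the related lists held 4, 9, 4, 11 and 13 genes with RPKM above 1. Of these genes 13 passed the thresholds (4 higher and 9 lower), against 48.3% of all genes. The 13 became 7 with a fold change above 2, 1 at dispersion 0.04 and 0 at 0.16. After TMM 16 genes of these lists passed (9 higher and 7 lower), against 47.2% of all genes. After the GC correction 10 passed (6 higher and 4 lower), against 36.4% of all genes with GC content. In these lists 1 gene had no GC content and could not pass. Over all genes, 5702 became 2842 with RPKM above 10, 2688 with a fold change above 2, 3637 with GC content and length corrected, 272 at dispersion 0.04 and 1 at 0.16. Lower genes outnumbered higher genes 3781 to 1921 as deposited, but not after TMM (2758 lower, 2864 higher) or the GC correction (2043 lower, 2158 higher). The variation between cultures was not measured.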
